A study of Danio rerio with 2 samples.

Results

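Apolipoproteins are the protein part of the particles that carry lipid through the blood. Apolipoprotein B is built into each very low density lipoprotein particle in the secretory pathway and stays with it, whereas the A, C and E apolipoproteins are smaller and can move between particles. In fish, as in mammals, the liver and the intestine are main sources, and in the zebrafish larva the yolk syncytial layer, which packs yolk lipid into lipoproteins, is another. The genes described here were taken by symbol from a list of 10 apolipoprotein genes (apoa1a, apoa1b, apoa2, apoa4b.1, apobb.1, apoba, apoea, apoeb, apoc1 and apoc2), and 9 of the 10 symbols were found among the 31953 gene IDs of the tables. No ID carried apoba. A single ID was named with the human symbol APOB, and it is given under that symbol and not counted among the 9.

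Pooled liver RNA from larvae at 5 days post fertilization had been sequenced in 1 library per group, from uninjected controls and from man1a2 morphants. The morphants had received a morpholino (an antisense oligomer that blocks translation or splicing) against man1a2, the Golgi mannosidase that trims N-linked glycans. The controls had no injection of any kind, so the effects of injection and of the target cannot be told apart, and neither the fish line nor the morpholino and dose of the sequenced pool was stated. RNA of 3 batches of larvae had been combined in each pool, with 100 livers named in the labels. Both morpholinos of the study against man1a2 are shown, because which of them the sequenced pool received was not stated. Capitals in the first mark the bases that pair with the start codon.
man1a2-ATG MO: ccggcgtggtCATattttgatgatc
man1a2-splicing MO: aagaatgtaaactcacctctctgat

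The control library held 19658335 reads assigned to genes and the morphant library 19783886. With 1 library per group, no difference below has a replicate check. A gene was tested where its normalized counts averaged 100 or more, and was called higher or lower in morphants past 1.2-fold, the fold used in the study. The study also required a DESeq adjusted p under 0.05, which was not applied here. Intervals are 95% Clopper-Pearson intervals, which cover counting error only. Reads of MAN1A2 (ENSDARG00000041728) were 193 in controls and 195 in morphants. A morpholino need not lower its target's reads, so they do not check the label. Of 22 hepatocyte marker IDs, 21 were detected in each library, with fabp10b at 0 in both, and together they held 10.02% of control and 9.68% of morphant reads. Of the 21, 7 were lower and 2 higher in morphants, beside 19.1% lower and 21.4% higher of all 8557 tested genes. Their median log2 ratio was -0.14, against 0.04 over all tested genes, and ran from hpxb at -1.26 to TAT at 0.71. The tfa gene alone held 799736 of the 1970470 control reads of these markers. Exocrine pancreas markers (30 IDs) went from 1156 reads to 13442, and 16 of their 17 tested IDs were higher. Macrophage markers (17 IDs) went from 3168 to 531, and IDs named MFAP4 held most of the control reads. The part of these marker differences in the ratios below was not tested. In pooled tissue, fewer cells of a type and less RNA per cell cannot be told apart.

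The 9 genes together took 12.82% of all gene reads in the control library (interval 12.81% to 12.84%) and 12.55% in the morphant library (12.53% to 12.56%). Their sum was 2520544 reads in controls and 2482499 in morphants. Scaled by median-of-ratios size factors, the sum had a log2 ratio of morphant over control of -0.13 (interval -0.132 to -0.127), which is a morphant level 0.914 times that of controls. The sign of this value depended on the scaling. It was -0.0311 when libraries were scaled by total counts and 0.0191 when they were scaled by hepatocyte marker reads. A single gene, apoa1b, held 66.7% of the 9 genes' reads in controls and 66.8% in morphants. By number of reads, which also grows with transcript length, 4 of the 9 genes were among the 50 most read in controls and 3 in morphants. Both libraries had 6 among the 100 most read. Transcript lengths were not used here, so levels are not compared between genes.

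**Figure D1:**
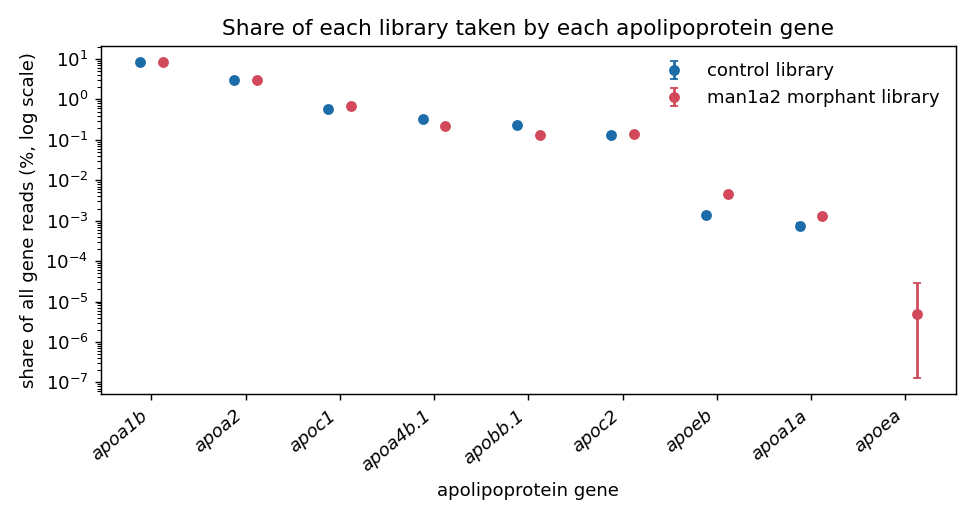
Share of all gene reads (percent, log scale) of each apolipoprotein gene in the control and the morphant library, with 95% Clopper-Pearson intervals that mostly lie within the points. The 6 most read genes lie above 0.1% in both libraries, apoeb and apoa1a lie under 0.005%, and apoea has 1 morphant read and no control read, so no control point is drawn for it.

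Of the 9 genes, 8 had enough reads to be tested and apoea had not. Of those 8, 2 were higher (apoeb and apoa1a), 2 were lower (apobb.1 and apoa4b.1) and 4 lay between (apoa1b, apoa2, apoc1 and apoc2). Across all 8557 genes tested, 21.4% were past the fold upward and 19.1% downward, or 40.4% either way, so 4 of 8 is near the background. Scaling by total counts or by hepatocyte marker reads raised each log2 ratio by 0.10 or 0.15, and the share of all calls that were higher, 52.8% here, was then 72.3% or 79.4%. Under total counts the members' calls were the same 4 genes. At 2-fold, only apoeb was past the fold, beside 1.27% of all tested genes higher and 1.4% lower. The median log2 ratio was -0.06 over the 8 genes and 0.04 over all genes tested. Where normalized counts averaged 1000 or more, 0 of 6 members were higher and 2 were lower, beside 17.1% higher and 16.3% lower (33.4% either way) of 1948 genes.

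The A-I and A-II apolipoproteins are the main proteins of high density lipoprotein. The gene apoa1b (ENSDARG00000101324) had 1680048 reads in controls and 1659497 in morphants, and was the most read gene of both libraries. Its log2 ratio was -0.125 (interval -0.128 to -0.122), and it turned to 0.0233 under scaling by hepatocyte marker reads. For apoa2 (ENSDARG00000015866) the counts were 589644 and 589630, or 2.999% of control and 2.98% of morphant reads. Its log2 ratio of -0.11 (interval -0.113 to -0.102) likewise turned to 0.041 when hepatocyte markers set the scale. Both stayed under 1.2-fold in every scaling tried.

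The paralog apoa1a (ENSDARG00000012076) had 147 reads in controls and 254 in morphants. Its log2 ratio was 0.68 (interval 0.38 to 0.98), a morphant level 1.6 times that of controls. In controls there were 11429 reads of apoa1b for each read of apoa1a, and in morphants 6533. The log2 change of apoa1a over apoa1b, which does not depend on scaling, was 0.81 (95% Wald interval 0.51 to 1.1). How reads that match both paralogs were assigned was not stated, so the apoa1a count, very small beside that of apoa1b, is uncertain. Of the genes tested, 268 had a higher ratio than apoa1a.

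Apolipoprotein B is the structural protein of the particles that leave the hepatocyte with triglyceride, and 3 IDs carried symbols of its family. Counts for apobb.1 (ENSDARG00000022767) were 44657 in controls and 25378 in morphants, which took its share from 0.227% to 0.128% of the library. The log2 ratio was -0.92 (interval -0.95 to -0.90), so that the morphant level was 0.527 times the control level. Of 8557 genes tested, 149 had a lower ratio. Its log2 ratio was -0.82 under total counts and -0.77 under hepatocyte marker reads. The ID named APOB (ENSDARG00000042780) was also lower, with 8931 and 6033 reads and a log2 ratio of -0.67 (interval -0.72 to -0.63). For each read of APOB there were 5.00 reads of apobb.1 in controls against 4.21 in morphants, a log2 change of -0.25 (Wald interval -0.30 to -0.20). The remaining paralog, apobb.2 (ENSDARG00000075016), differed in the other direction, with 114 reads in controls against 282 in morphants (log2 ratio 1.196, interval 0.88 to 1.53).

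Apolipoprotein A-IV is carried on triglyceride-rich and high density particles in mammals. Its zebrafish gene apoa4b.1 (ENSDARG00000040298) had 63276 control reads and 43099 morphant reads, or 0.322% and 0.218% of each library. Its log2 ratio was -0.66 (interval -0.68 to -0.64), and 351 genes had a lower one. Its tandem neighbours apoa4b.3, with 6291 and 4383 reads, and apoa4b.2, with 3180 and 2227, had log2 ratios of -0.63 and -0.62. The 3 are close paralogs, so the split of reads among them is uncertain. The paralog apoa4a went the other way, from 3 reads to 111 (log2 ratio 4.89, interval 3.52 to 7.40). It had too few reads to be tested and is named after its values were seen.

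Apolipoprotein E is a ligand of the low density lipoprotein receptor family. Reads of apoeb (ENSDARG00000040295) rose from 276 in controls to 887 in morphants. With a log2 ratio of 1.57 (interval 1.38 to 1.78), its morphant level was 2.98 times that of controls. It had the largest ratio of the 8 genes, exceeded by 42 of 8557 genes tested. Its log2 ratio was 1.67 under total counts and 1.72 under hepatocyte marker reads, scalings that move every gene alike. Its share was small in both libraries, at 0.0014% and 0.00448%. Macrophages are a known source of apolipoprotein E, and the only macrophage marker IDs with enough reads to be tested, both named MFAP4, were lower (2573 and 226 reads for ENSDARG00000090557, 208 and 38 for ENSDARG00000089667). The other 15 of the 17 macrophage IDs were not tested, so this is 1 gene name and not the list. The exocrine pancreas markers were higher together with apoeb, and their part in its value was not tested. For apoea (ENSDARG00000102004) there was no control read and 1 morphant read, and no difference was detectable at this depth, where 3 reads correspond to 0.153 CPM (counts scaled to the control total) and a count of 0 allows that much.

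The C apolipoproteins regulate the lipases and transfer proteins that act on particles, and C-II is the cofactor of lipoprotein lipase. The gene apoc1 (ENSDARG00000092170) had 116707 reads in controls and 136127 in morphants, and its share went from 0.594% to 0.688%. Its log2 ratio was 0.11 (interval 0.10 to 0.13), and it passed 1.2-fold only under scaling by hepatocyte marker reads, at 0.263. For apoc2 (ENSDARG00000092155) the counts were 25789 and 27626, with a log2 ratio of -0.0084 (interval -0.033 to 0.016) that became 0.0901 under total counts. In controls there were 4.53 reads of apoc1 for each read of apoc2, and in morphants 4.93, a log2 change of 0.12 (Wald interval 0.10 to 0.15). The C-IV gene apoc4 (ENSDARG00000075614) was lower, with 775 and 357 reads and a log2 ratio of -1.22 (interval -1.41 to -1.04).

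**Figure D2:**
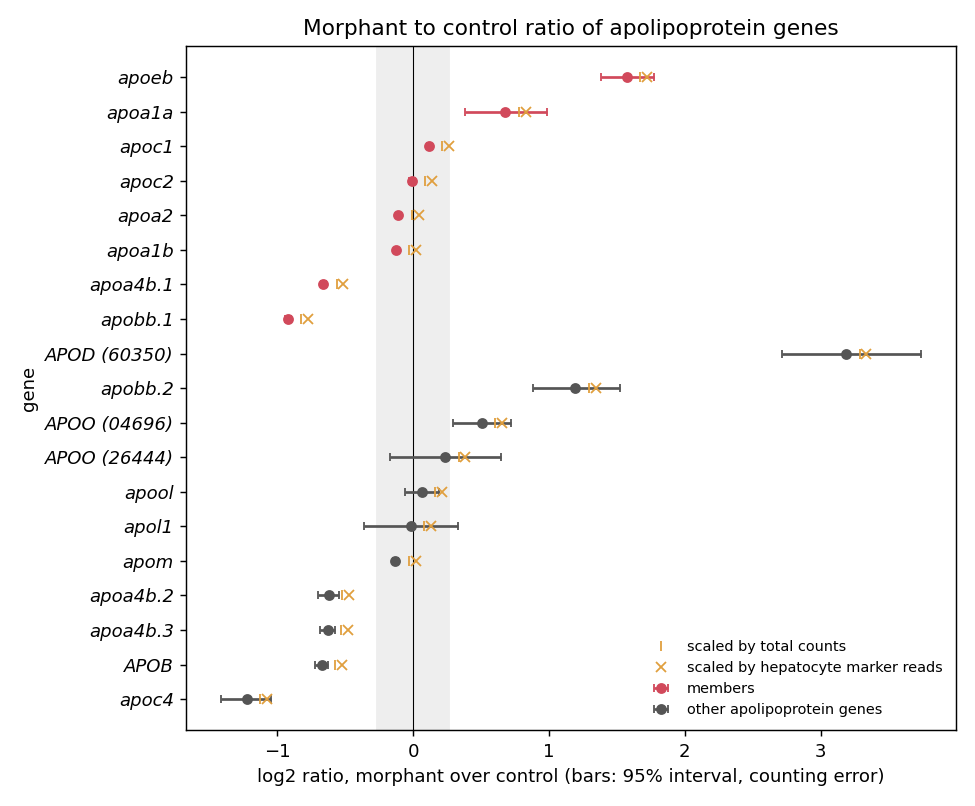
Log2 ratio of morphant over control for the 8 tested member genes (red) and 11 other tested apolipoprotein genes (grey), with bars for the 95% interval of counting error and the band under 1.2-fold shaded. Orange marks give the same ratio scaled by total counts or by hepatocyte marker reads, which lie 0.10 and 0.15 to the right, and apoeb, apoa1a, apoa4b.1 and apobb.1 stay outside the band under all 3 scalings.

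Besides the 9 genes, 15 IDs carried symbols from a list of other apolipoproteins, and 11 of these were tested. Of the 11, 3 were higher and 4 were lower, with a median log2 ratio of -0.02, beside 21.4% and 19.1% of all tested genes. The largest ratio of the 11 was that of the ID ENSDARG00000060350, 1 of 2 named APOD (a lipocalin carrier and not a structural protein of particles), with 37 control and 368 morphant reads (log2 ratio 3.19, interval 2.72 to 3.74). Besides apobb.2, the other that was higher was ENSDARG00000104696, 1 of 2 IDs named APOO (a mitochondrial protein), with 300 and 459 reads. The apom gene, whose lipocalin carries sphingosine 1-phosphate on high density lipoprotein, had 42663 and 41999 reads and a log2 ratio of -0.13, under 1.2-fold like apool, apol1 and the other APOO ID (0.24, and 0.34 under total counts, past the fold).

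In RefSeq's annotation of assembly GRCz12tu, 8 apolipoprotein genes lie in a run of 10 protein-coding genes, in the order apoa4b.1, apoa4b.3, apoa4b.2, apoeb, apoc1, apoc4, apoa2 and apoc2. The tables were made on another build, named as GRCz10 in the submitters' processing notes, so no coordinates are given. The 8 neighbours did not share 1 direction. The 3 apoa4b genes were lower by nearly the same ratio, apoeb beside them was higher, apoc1, apoa2 and apoc2 lay under 1.2-fold, and apoc4 between apoc1 and apoa2 was lower. Their summed reads were 805938 in controls against 804336 in morphants, a log2 ratio of -0.11. Most of these were reads of apoa2, 589644 and 589630, so the sum mainly gives the ratio of that gene. In a separate pair, apoa4a lies beside apoea.

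**Figure D3:**
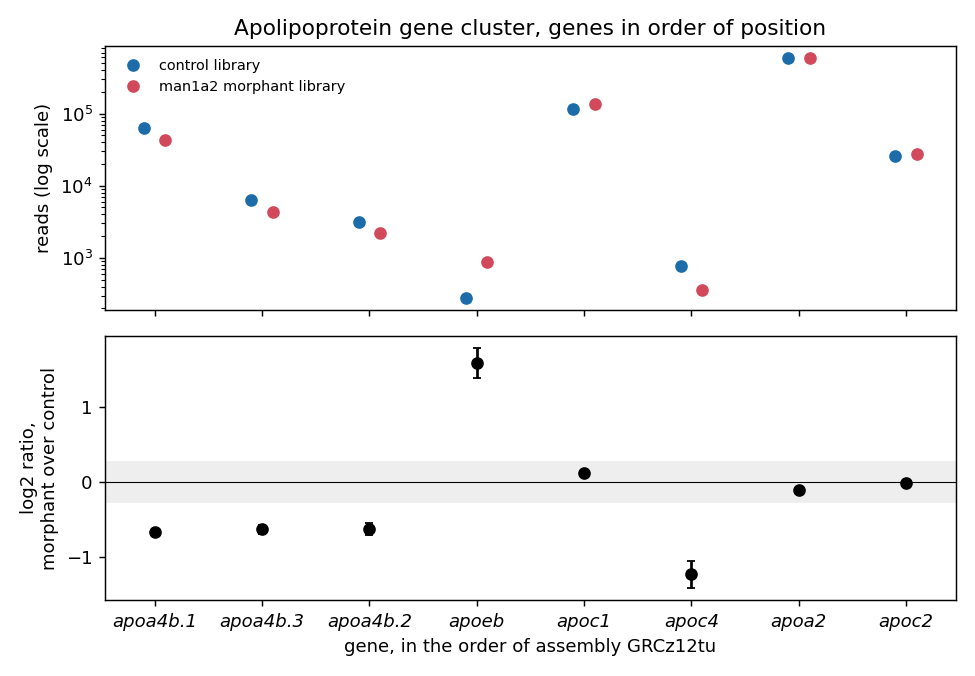
Reads in each library (upper panel, log scale) and log2 ratio of morphant over control with 95% intervals of counting error (lower panel, band under 1.2-fold shaded) for the 8 apolipoprotein genes of one cluster, in their order in GRCz12tu. Log2 ratios run from -1.22 for apoc4 to 1.57 for apoeb among genes that are neighbours.

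**Figure D4:**
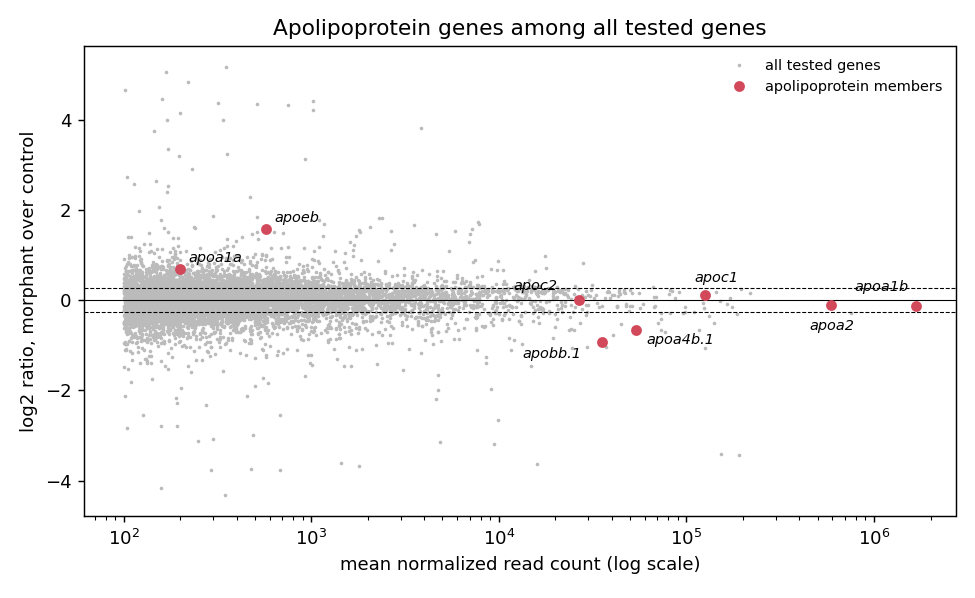
Log2 ratio of morphant over control against the mean normalized read count (log scale) for 8557 tested genes (grey) and the 8 tested apolipoprotein genes (red), with dashed lines at 1.2-fold. The genes apoa1b and apoa2 lie at the far right near 0, apobb.1 and apoa4b.1 lie below the lower line, and apoeb and apoa1a lie above the upper line at low counts.

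How firmly the 4 calls stand depends on how much 2 pools of 1 group would differ, which was not measured. With the coefficient of variation between pools taken as 0.1, edgeR's exact test gave an adjusted p of 7.38e-10 for apoeb, 0.000335 for apobb.1, 0.0256 for apoa4b.1 and 0.0955 for apoa1a. At an assumed 0.2 the adjusted p was 0.0269 for apoeb and 0.883 for apobb.1 in edgeR's exact test, and at 0.4 none of the 8 genes was past 0.05. These p-values compare the 2 libraries under an assumption and not the conditions.

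Genes that act with the apolipoproteins were compared by lists. Under total counts, negative medians of 0.10 or less in size come to about 0 or above, so their sign depends on the scaling. The median of all tested genes moves as well, from 0.04 to 0.14, so a list's distance from it hardly changes. The counts of higher and lower IDs below hold for the main scaling only. Under total counts each log2 ratio is raised by 0.10. Lower IDs near the fold, such as foxa3 (-0.30), then come under it, and IDs just short of it, such as mia2 (0.256), pass it upward. For assembly of apolipoprotein B particles, 18 of 19 IDs were tested, of which 2 were higher and 7 lower, with a median log2 ratio of -0.10. Over all tested genes 21.4% were higher and 19.1% lower. MTTP, which loads lipid onto apolipoprotein B, had 6966 reads in controls against 7612 in morphants and a log2 ratio of 0.02. DGAT2, which makes triglyceride, was lower with 2911 and 1823 reads (log2 ratio -0.78, interval -0.87 to -0.70), as was the ID of DGAT1 that was tested, at -0.58. The sterol esterifying enzymes differed in opposite directions, SOAT1 from 451 to 262 reads (-0.89) and SOAT2 from 647 to 1180 (0.76). The transport gene sar1b and the cargo receptor LMAN1 lay under 1.2-fold, with a log2 ratio of -0.06 each.

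For enzymes and inhibitors that remodel particles, 4 of 15 tested IDs were higher and 3 were lower, which is near the 21.4% and 19.1% of all tested genes, with a median of 0.02. LIPC, the hepatic lipase, had 1880 reads in controls against 824 in morphants (log2 ratio -1.30, interval -1.42 to -1.18). LCAT, which esterifies cholesterol on high density lipoprotein and is activated by apolipoprotein A-I, went from 4224 to 3093 reads (-0.56). In the other direction, LPL (lipoprotein lipase, which needs apolipoprotein C-II) went from 9213 to 12715 reads (0.36), and its inhibitor angptl8 from 366 to 793 (1.01).

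Of the receptor and uptake list, 13 of 24 IDs were tested, 2 higher and 4 lower (all tested genes, 21.4% and 19.1%), with a median of -0.03. The low density lipoprotein receptor gene ldlra had 4733 reads in controls against 4991 in morphants (log2 ratio -0.03, and 0.07 under total counts). LRP1, a receptor for remnants that carry apolipoprotein E, was lower with 655 and 395 reads (-0.84). SCARB1, which takes up lipid from high density lipoprotein, was higher with 162 and 251 reads (0.52, interval 0.23 to 0.82). LRP5 (-0.44) and 1 of 2 IDs named MYLIP (-0.37), a ligase that degrades the receptor, were lower, the latter not past 1.2-fold with hepatocyte marker reads (-0.22).

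Transporters that hand lipid to particles or to bile formed a short list, with 5 of 11 IDs tested, 3 higher and 1 lower, against shares of 21.4% and 19.1% over all tested genes. ABCA1, which gives lipid to apolipoprotein A-I, was lower with 5710 and 3121 reads (log2 ratio -0.98, interval -1.04 to -0.92). Its paralog abca1b had 23 and 19 reads. ABCG5 and ABCG8, which pair as the sterol exporter of the canalicular membrane, were both higher, from 173 to 343 reads (0.88) and from 160 to 332 reads (0.94), as was NPC2, a lysosomal cholesterol carrier (0.29).

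Among factors known to control apolipoprotein genes, 30 of 37 IDs were tested, 4 higher and 10 lower, with a median of -0.09. The shares over all tested genes were 21.4% and 19.1%. HNF4A, a main activator of these genes in the liver, had 1758 and 1775 reads and a log2 ratio of -0.09, which was 0.0047 under total counts. Of the CREB-H genes, creb3l3a was lower from 355 to 226 reads (-0.76) and creb3l3b higher from 319 to 450 (0.39). The CREB-H gene with most reads, creb3l3l, was lower, from 588 to 488 (-0.38, interval -0.55 to -0.20). The sterol sensor's factor srebf2 was higher, from 1346 to 1954 reads (0.43, interval 0.33 to 0.53), as was the retinoid X receptor gene rxrga, from 270 to 503 (0.79).

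Of the class I mannosidases, the enzyme class of the morpholino target, 7 of 8 IDs were tested and 4 were lower, where 19.1% of all tested genes were lower. These were MAN1C1 with 557 control and 319 morphant reads (-0.91), MAN1A1 with 2302 and 1809 (-0.46), MAN1B1 with 121 and 98 (-0.41) and EDEM1 with 1305 and 1151 (-0.29). The intervals of MAN1B1 (-0.81 to -0.016) and EDEM1 (-0.40 to -0.17) reach under 1.2-fold. EDEM1 was under 1.2-fold with total counts (-0.19), and both EDEM1 (-0.14) and MAN1B1 (-0.262) were under it with hepatocyte marker reads.

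**Figure D5:**
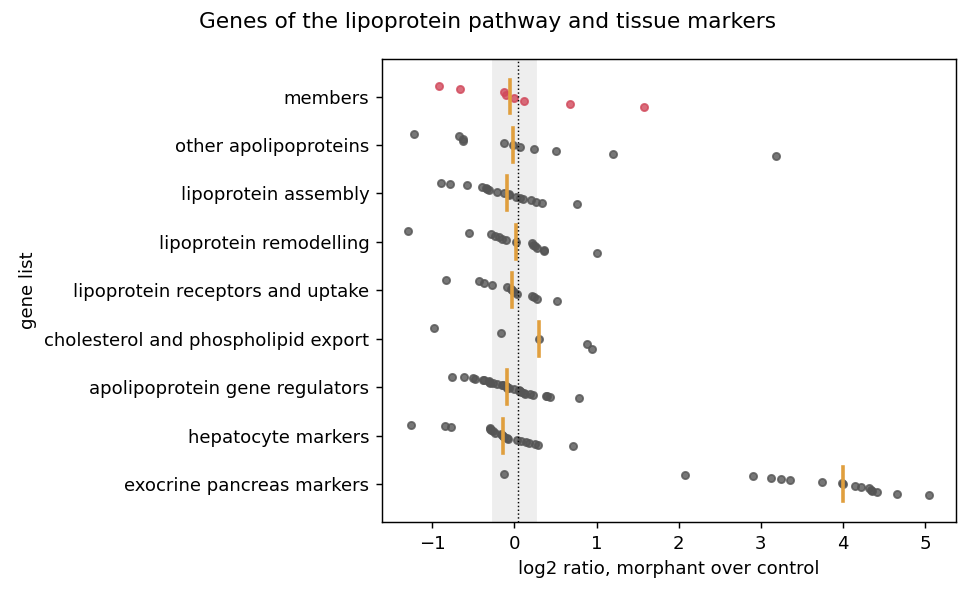
Log2 ratio of morphant over control for each tested gene of the apolipoprotein members, the pathway lists and 2 marker lists, with the band under 1.2-fold shaded, the median of each list as an orange bar and the median of all tested genes (0.04) as a dotted line. Medians of the 5 plotted pathway lists other than the export list lie between -0.10 and 0.02, that of the export list is 0.29, and that of the exocrine pancreas markers is 3.998.

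Outside the apolipoproteins, the most read gene of both libraries was tfa, the transferrin gene, with 799736 control and 702507 morphant reads (log2 ratio -0.29). It was also nearest to apoa1b by shares of both libraries among the 50 most read genes of the control, followed by apoa2 and MT-CO1, a mitochondrial gene. With 2 libraries this likeness is a level and 1 ratio. Of the other non-members with most reads in controls, fetub had a log2 ratio of -0.31 and MT-CO1 of 0.16. Far larger falls were those of zgc:158463, with 337357 and 33861 reads, and si:dkey-153m14.1, with 269271 and 27339. These genes were picked by control reads alone. By morphant reads, zgc:158463 ranked 74 and si:dkey-153m14.1 ranked 92. Intestinal markers were few, with 12 of 18 IDs at 0 in controls and 8 in morphants, VIL1 among them in both. FABP2 held most of their reads, at 2415 and 2550. The yolk syncytial markers mxtx1 and mxtx2 had 3 and 0 reads in controls and 1 and 0 in morphants. Whether these markers would show yolk syncytial tissue at this age, and whether the pools held any, was not tested.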

How the data were processed

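The authors deposited 1 table of raw counts per library, whole numbers of reads per Ensembl gene without normalization. Per the labels, the libraries came from poly-A RNA and kept the strand. The submitters' processing notes name FastQC, DESeq2 and build GRCz10, with no versions. The aligner, the counting program and the treatment of reads matching several genes are not given in the sources used here. Symbols were taken from a name table that named 26121 of the IDs (81.7%). Listed symbols were matched without regard to case and, failing that, without a paralog suffix.

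Counts were scaled with DESeq2 1.42.0 median-of-ratios factors in R 4.3.3. A log2 ratio is morphant over control, each normalized count with a pseudocount of 0.5. Intervals carry no pseudocount. Genes were tested where normalized counts averaged 100 or more. With 1 library per group no quasi-likelihood fit was possible, so a call is a fold of 1.2 or more, without a p-value. Alternatives were TMM and upper-quartile factors and exact tests of edgeR 4.0.16, other scalings, filters, folds and pseudocounts. Scripts were tested on simulated data. Total depth was 19658335 and 19783886 counts. PCR copies are not independent molecules.

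The members and gene lists were chosen with earlier results of these data known. Named genes are all members and other tested apolipoproteins. From each pathway list come up to 4 genes past the fold, by the bound of the interval nearest 0. A set of key genes (mttp, ldlra, scarb1, abca1a, abca1b, hnf4a, lcat, lipca and man1a2) is also named. So are the 5 genes with most reads in the control library that are not members. Some genes that this rule names are not reported here. Other genes of the lists are named as partners of these and were chosen after their values were seen. Biliary markers (13 tested, 2 higher and 3 lower, beside 21.4% and 19.1% of all tested genes) were also listed.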

Additional observations from a re-analysis of the deposited data

How the results depend on the processing

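No paired analysis was possible because neither group had a further library. Total counts moved log2 ratios up by 0.10, total counts without the members by 0.09 and hepatocyte marker reads by 0.15, so that 72.3%, 71.5% and 79.4% of calls over all genes were higher, against 52.8%. With TMM factors the share was 49.6% (1696 higher and 1720 lower) and with upper-quartile factors 47.1% (1597 and 1796). The log2 ratio of the members' summed reads was -0.13, and -0.145 with TMM factors, -0.157 with upper-quartile factors, -0.0311 with total counts, -0.0356 with total counts without the members and 0.0191 with hepatocyte marker reads. Alternatives chosen after seeing the data gave -0.138 without apoa1b, and 3 lower members with APOB counted as apoba. The members counted 2 higher and 2 lower under the TMM, upper-quartile and both total count scalings, the exact binomial read test and a fold of 1.5. The binomial test covers counting error between the 2 libraries only. Of all 8557 tested genes, it left 1546 higher and 1374 lower, and a fold of 1.5 left 400 and 465. The members were 0 higher with a mean of at least 1000, 1 higher and 0 lower with a fold of 2, 1 higher and 2 lower when edgeR's exact test took the coefficient of variation as 0.1, 1 and 0 at 0.2, and 0 and 0 at 0.4. Without a filter, or with at least 1 read, apoea made 3 higher, on 1 read. Over all genes, 1827 higher and 1633 lower became 2842 and 1088 with total counts, 2788 and 1114 with total counts without the members, 3422 and 886 with hepatocyte marker reads, 6329 and 6398 with at least 1 read or no filter, 333 and 318 with a mean of at least 1000, 400 and 465 with a fold of 1.5, 109 and 120 with a fold of 2, and 229 and 297, 53 and 42, and 15 and 8 with assumed coefficients of variation of 0.1, 0.2 and 0.4. The members other than the 3 most read took 0.777% of control and 0.559% of morphant counts that remain without those 3. Of 66 genes recomputed, no called one changed sign under any scaling or pseudocount, but this outcome was fixed in advance. A scaling moves all genes alike, by at most 0.15, and a call needs a log2 ratio of 0.26 in size. A pseudocount added to both counts cannot reverse their order. Calls could still be lost, as for EDEM1, at -0.29 in the main setting and -0.19 with total counts. Reads per coding residue were not run. Pool to pool variation was not measured, and genes under 100 counts are limited by depth.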
